A study of Drosophila melanogaster with 2 samples.

Results

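The genes described here are fkh, sage, CrebA, eyg and trh, which encode 5 transcription factors of the Drosophila salivary gland and trachea, out of 13968 protein-coding genes in the annotation. They were chosen by name with their peak signals and ranks in these libraries already known, so their peaks are given as a description with no test. For each gene the peak summits at its transcription start sites (TSSs), in its body and within 10 kb were taken from the peak lists on dm6. The lists come from chromatin immunoprecipitation and sequencing (ChIP-seq) of whole Drosophila melanogaster embryos, 4 to 20 h old and of both sexes. The embryos carry Bteb2 fused at its C-terminus to enhanced green fluorescent protein (eGFP). The labels state that anti-GFP antibody was used, while their antibody field reads Bteb2. The 2 libraries, biological replicates 1 and 3, form 1 group and share genotype, stage and fragment size of 200 to 800 bp. Bteb2 is named in the labels as the product of Klf15, a zinc finger protein of the KLF family. Embryos were not dissected, so a peak cannot be assigned to the salivary gland, to the trachea or to any other tissue. The labels do not give the promoter that drives the fusion, and read depth is unknown. A control named as a possible one was not analysed here, so whether the same regions are enriched without the fusion protein was not tested.

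The embryonic salivary gland is a secretory organ placed by the Hox gene Scr, and it consists of secretory cells and a duct. Fkh is a FoxA-type forkhead protein that keeps secretory cell fate and also acts in the gut. Sage is a basic helix-loop-helix (bHLH) protein of the salivary gland that works with Fkh on genes of secreted products. CrebA is a bZIP protein that raises expression of the secretory machinery. Eyg is a Pax protein needed for salivary duct and for eye growth. Trh is a bHLH-PAS protein that pairs with Tgo, starts tracheal development and is needed for the salivary duct.

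The optimal peaks are the 3350 regions that the authors kept as reproducible, and they are exactly the 3350 of highest signal among the 30000 relaxed peaks of the pooled replicates. Rank 1 is the highest signal in a list. Signal is the authors' own peak score, on a scale that differs between lists, and each replicate has its own relaxed list of 30000. Of the 5 genes, 4 had an optimal summit within 1000 bp of a TSS (80%), where 20.4% of all protein-coding genes did. Since the genes were chosen with these peaks known, nothing is read from that gap. The same 4 had an optimal summit in the gene or within 10 kb (background 56.6%), and 2 of 5, CrebA and trh, had one inside the annotated body (background 9.61%). These are the longest of the 5 (17.82 and 26.11 kb), and the background covers genes of all lengths. The trh summit in the body is that of its internal promoter, already counted near a TSS. All 5 had a relaxed summit within 1000 bp of a TSS (background 62.4%). In all, 8 optimal and 50 weaker relaxed summits lay in the 5 genes and their flanks. No optimal summit of these genes lay in a coding exon, and all 5 promoter summits lay upstream of the TSS. The shares over all optimal summits are not given here, so nothing is read from either count.

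Windows around 4 of these summits are printed because they show how unlike in base composition the sites are, and because 3 of them hold a searched motif. Each run has 201 bases centred on the summit, from the Release 6 genome sequence of RefSeq (the dm6 assembly), plus strand, 5′ to 3′. None overlaps an annotated exon. Capitals mark exact matches to a searched motif on either strand: a KLF and SP site in fkh, a GAGA site in eyg and the word ACACTG in trh. The last 2 are on the minus strand and so printed as their reverse complement. The CrebA window has no match.
fkh promoter, chr3R:28585387-28585587: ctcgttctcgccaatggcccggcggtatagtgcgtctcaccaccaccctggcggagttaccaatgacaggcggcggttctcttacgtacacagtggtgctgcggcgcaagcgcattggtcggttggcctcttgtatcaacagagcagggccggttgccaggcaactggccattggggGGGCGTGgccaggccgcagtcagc
CrebA intron, chr3L:15538046-15538246: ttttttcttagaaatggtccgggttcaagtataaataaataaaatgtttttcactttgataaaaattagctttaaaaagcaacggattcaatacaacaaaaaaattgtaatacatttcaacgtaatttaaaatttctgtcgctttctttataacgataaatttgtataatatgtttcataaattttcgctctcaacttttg
eyg promoter, chr3L:12468079-12468279: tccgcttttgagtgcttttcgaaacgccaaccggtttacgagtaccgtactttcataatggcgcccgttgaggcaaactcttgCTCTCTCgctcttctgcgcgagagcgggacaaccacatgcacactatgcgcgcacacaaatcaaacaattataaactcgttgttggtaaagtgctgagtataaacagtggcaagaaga
trh internal promoter, chr3L:377672-377872: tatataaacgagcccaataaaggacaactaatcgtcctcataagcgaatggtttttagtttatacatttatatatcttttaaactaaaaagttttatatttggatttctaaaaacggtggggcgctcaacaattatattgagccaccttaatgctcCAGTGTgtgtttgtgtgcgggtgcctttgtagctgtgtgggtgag

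**Figure D1:**
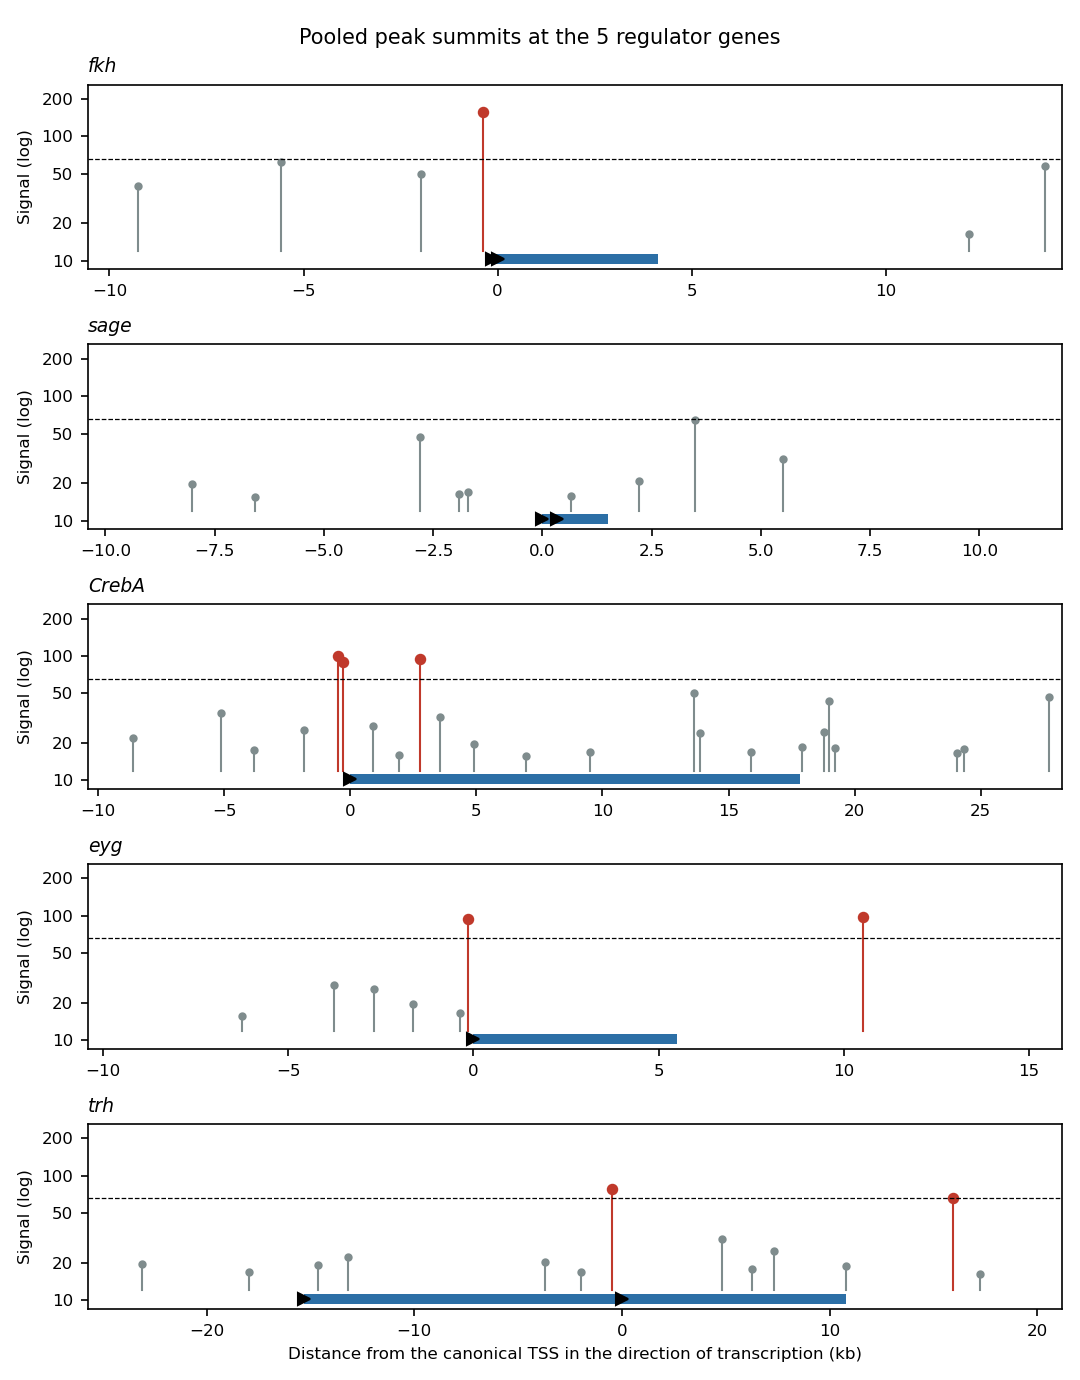
Pooled relaxed summits at each gene, with distance from the canonical TSS in kb along the direction of transcription on the x axis and the authors' peak signal (log scale) on the y axis. Red points are optimal summits, grey points weaker summits, blue bars the gene bodies, black arrowheads the TSSs, and the dashed line the weakest optimal signal (65.9). The highest point is the fkh promoter summit at 158, and no point of sage is red.

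The fkh promoter carried the strongest peak of the 5 genes. fkh (FBgn0000659) lies on the minus strand of 3R from 28580976 to 28585264 and has 5 annotated transcripts from 2 TSSs. Its optimal peak spans 3R from 28585279 to 28585694, with the summit 223 bp upstream of the outer TSS and 375 bp upstream of the canonical one. The signal was 158 in the pooled list (rank 700), 105 in replicate 1 (rank 591) and 53.3 in replicate 3 (rank 949). Both replicates thus place it among their 1000 strongest peaks, and their summits lay 1 and 26 bp from the pooled one. Ordered by the strongest summit near a TSS, fkh stood at position 746 of the 8722 protein-coding genes that have a relaxed one. The summit also lay within 1000 bp of the TSS of lncRNA:CR43126, a divergent long noncoding RNA gene on 3R from 28586048 to 28591386, so the peak has a pair of candidate genes. There was no other optimal summit within 10 kb, and the gene body held no relaxed summit in the pool or in either replicate. Of the 5 weaker pooled summits, the strongest (signal 62.3, rank 3661) lay 5437 bp upstream inside lncRNA:CR43126, and the next (57.9, rank 4085) lay 14096 bp downstream of the nearest TSS.

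The fkh window was one of the most GC-rich of all optimal windows. Its GC content was 63.7%, against a median of 35.3% (quartiles 31.3 and 39.8) over the 3350 optimal windows, of which 3 were richer. It holds GGGCGTG, starting 77 bp after the summit, which is 1 of the 4 words searched as the KLF and SP site. The other words are the GC box word GGGCGGG, its T variant GGGTGGG and, last, the word GGGTGTG. That site occurred in 127 optimal windows (3.79%) and in 7.99% of 14695 comparison windows, which are the lower-ranked 15000 pooled peaks without those that overlap an optimal one. Among the 111 optimal windows with a GC content of at least 50%, 9 held it (8.11%). fkh was the only one of the 8 member windows with this site. A match of letters is a description and not a site shown to be bound.

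**Figure D2:**
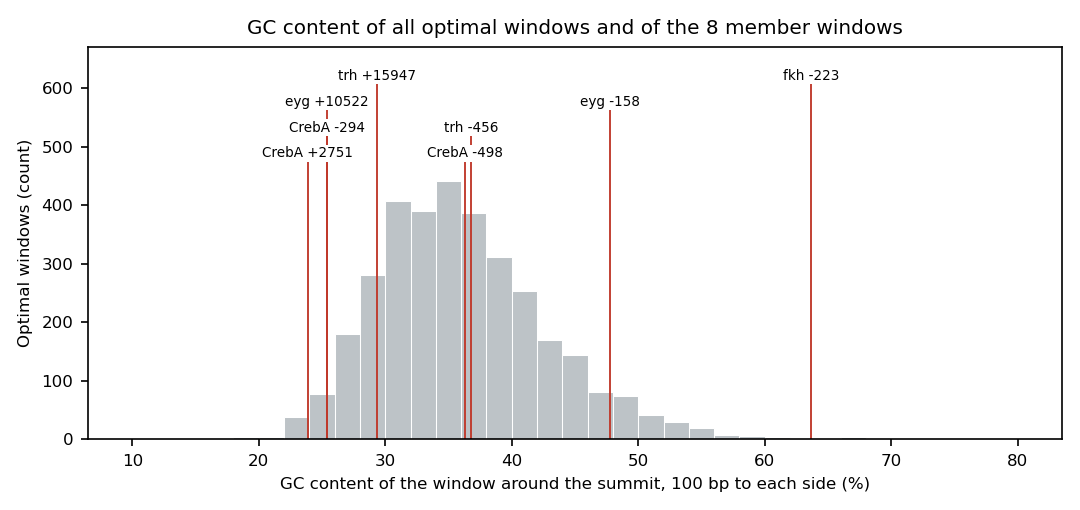
GC content (%) of the 201 bp windows of all 3350 optimal peaks (grey bars, count of windows) with the 8 windows at the regulator genes as red lines, each named by its gene and the distance in bp from the gene's nearest TSS. The fkh promoter stands at 63.7%, and the lowest, in the CrebA intron, at 23.9%.

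The sage gene, which is the partner of fkh, had no optimal peak. sage (FBgn0037672) lies on the minus strand of 3R from 9262654 to 9264142, with 2 transcripts from 2 TSSs, in a dense stretch of genes. The pooled summit nearest to a TSS, 333 bp inside the gene in coding sequence, had a signal of 15.7 at rank 29325 of 30000. In replicate 1 no relaxed summit lay within 1000 bp of either TSS, and in replicate 3 the strongest had rank 25003. The sage promoter is therefore near the floor of the pooled list, whose lowest signal is 15.4. The strongest of the 9 relaxed summits within 10 kb had a signal of 64.2 (rank 3502), just under the limit of the optimal set. It lay 5 bp from the TSS of ATP6AP2, a gene of the vacuolar proton pump, and 3176 bp downstream of the nearest sage TSS. Its rank was 2569 in replicate 3 and 4852 in replicate 1. The next (signal 47.2, rank 5604) lay between the divergent genes TrpRS and Vps16A.

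CrebA had the most peaks, a pair just upstream of its TSS and a further one in an intron. CrebA (FBgn0004396) lies on the plus strand of 3L from 15535395 to 15553214, with 2 transcripts from 1 TSS. The first promoter peak (3L from 15534689 to 15535104, summit 498 bp upstream) had a signal of 99.4 in the pooled list (rank 1658), 57.3 in replicate 1 (rank 1942) and 39.3 in replicate 3 (rank 1695). The second (3L from 15534893 to 15535308, 294 bp upstream) had a pooled signal of 88.8 (rank 2037) and a signal of 52.8 in replicate 1 (rank 2274). These summits were 204 bp apart and the peaks overlap by 212 bp. Replicate 3 had a single peak there, with its summit between them, 371 bp upstream of the TSS, so the pair is resolved in replicate 1 and in the pool but not in replicate 3. Of all optimal summits, 8.54% had another within 250 bp.

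The intronic CrebA peak had nearly the same rank in both replicates. It spans 3L from 15537938 to 15538353, with the summit 2751 bp downstream of the TSS, and the pooled list and both replicates place that summit at the same base. The signal was 95.0 in the pooled list (rank 1789), 55.2 in replicate 1 (rank 2088) and 37.1 in replicate 3 (rank 1847). Both promoter peaks and the intronic peak are close in rank. Replicate 1 holds all 3 among its strongest 3350, and replicate 3 holds the intronic peak and its single promoter peak there. The intronic window had a GC content of 23.9%, lower than all but 0.836% of optimal windows, and the promoter windows had 36.3% (498 bp upstream) and 25.4% (294 bp upstream). None of the 11 searched motifs matched in any of the 3 windows. No other gene has a TSS within 1000 bp of these summits, so at CrebA the peaks have no second candidate by that distance.

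With 3 optimal summits, CrebA was in the 13.3% of protein-coding genes with 3 or more in the gene or within 10 kb. Among 515 other genes of similar length (0.8 to 1.25 times), 20.6% had at least as many, and the median was 1. Weaker summits were also dense in CrebA and its flanks, with 23 relaxed summits in all. That is 0.608 per kb of gene and flanks, where the median protein-coding gene had 0.301 and 9.21% of genes had more. Of the 23, 10 lay in the gene body. Those in the flanks included several inside AGO2 and others within 1000 bp of a TSS of CG7739, CG33985 or CG43248. The strongest of the weaker ones (signal 50.6, rank 5055) lay in the gene 13644 bp downstream of the TSS. The others of the 5 genes had 0.247 (fkh), 0.419 (sage), 0.275 (eyg) and 0.282 (trh) per kb, on both sides of that median.

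At eyg an optimal peak lay at the promoter and another far downstream in intergenic sequence. eyg (FBgn0000625) lies on the minus strand of 3L from 12462537 to 12468021, with 3 transcripts from 1 TSS. The promoter peak (3L from 12467971 to 12468386, summit 158 bp upstream) had a signal of 94.1 in the pooled list (rank 1836), 62.0 in replicate 1 (rank 1685) and 31.3 in replicate 3 (rank 2503). The downstream peak (3L from 12457291 to 12457706) had its summit 10522 bp from the TSS, past the end of the gene. Its signal was 98.1 in the pooled list (rank 1697), 44.1 in replicate 1 (rank 3156) and 51.3 in replicate 3 (rank 1028). The order of the 2 peaks thus differs between the libraries: the promoter peak is the stronger in replicate 1 and the downstream peak in replicate 3. The nearest TSS to both is that of eyg.

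The eyg windows differ in composition. The promoter window had a GC content of 47.8%, above 94.0% of optimal windows, and holds a GAGA site (GAGAGAG, here on the minus strand), which starts 17 bp before the summit. GAGA sites occurred in 3.64% of optimal and 3.12% of comparison windows. The downstream window had a GC content of 25.4% and no match to a searched motif. Between the 2 optimal peaks, the eyg body held no pooled relaxed summit, while the relaxed list of each replicate had 1 there. The 5 weaker pooled summits, all upstream of the gene, reached a signal of 27.6 at most (rank 12665).

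The trh peak lay at the internal promoter and not at the outer one. trh (FBgn0262139) lies on the minus strand of 3L from 366524 to 392633, with 7 transcripts from 2 TSSs. Of these, 5 transcripts, the canonical one among them, start at the internal TSS (3L, 377316) and 2 at the outer TSS (3L, 392633). The optimal peak (3L from 377564 to 377979) had its summit 456 bp upstream of the internal TSS, within an intron of the longer transcripts. Its signal was 78.1 in the pooled list (rank 2542), 33.0 in replicate 1 (rank 5065) and 46.6 in replicate 3 (rank 1233). It is a strong peak in replicate 3 and falls outside the strongest 3350 in replicate 1. Near the outer TSS the strongest pooled summit, 655 bp away, had a signal of 19.1 (rank 22202), and the ranks there were 25801 in replicate 1 and 23119 in replicate 3. The window of the internal promoter had a GC content of 36.8% and holds the word ACACTG on the minus strand, 56 bp after the summit. This word occurred in 19.9% of optimal and 9.06% of comparison windows.

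The other optimal summit counted for trh belongs by distance to its neighbours. It lies in the flank, at 3L from 361161 to 361576, in the 5′ UTR of Cdc5 and 14 bp from the TSS of that gene, a splicing factor gene that is divergent to CG1233. It was 15947 bp from the nearest trh TSS. The signal was 66.5 in the pooled list (rank 3300), 48.7 in replicate 1 (rank 2635) and 23.1 in replicate 3 (rank 4090). It was the weakest of the 8 optimal summits, and its window, which overlaps exons and is not printed, holds motif 1 (GGTCACACT), present in 2.09% of optimal and 0.538% of comparison windows. Counting summits only for the protein-coding gene with the nearest TSS leaves 7 for the 5 genes and 1 for trh.

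**Figure D3:**
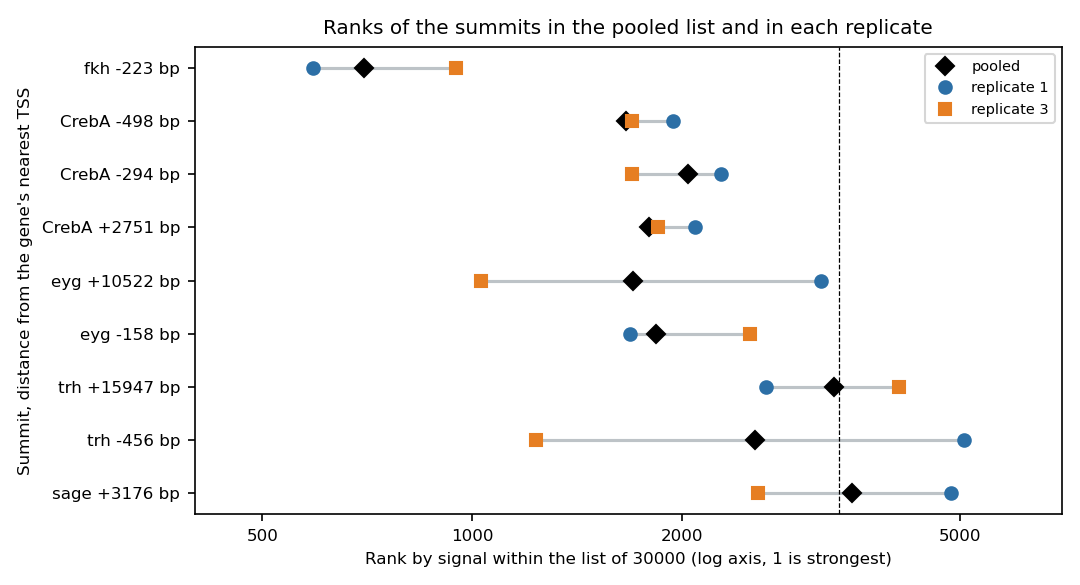
Rank by signal (log axis, 1 is strongest) in the pooled list (diamonds), replicate 1 (circles) and replicate 3 (squares) for the 8 optimal summits and the strongest summit near sage, each named by gene and distance in bp from that gene's nearest TSS. The dashed line is rank 3350, the end of the optimal set. The 3 CrebA summits lie close together, and the trh summit at -456 bp is spread from 1233 to 5065.

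The replicates placed all 8 optimal peaks but ranked some of them differently. Each overlapped a relaxed peak by at least 1 bp in both replicates, which is partly built in, since the authors kept optimal peaks for reproducibility. Among the strongest 3350 of both replicates were 6 of the 8, beside 74.4% of all optimal peaks. The exceptions were both summits of trh. The ratio of the higher to the lower rank number ran from 1.13 at the CrebA intron to 4.11 at the trh promoter, and 4.72% of all optimal peaks had a larger ratio than the latter. At the downstream peak of eyg it was 3.07, and 10.5% of optimal peaks had a larger one. The median over optimal peaks matched in both was 1.55, near the values of the fkh promoter (1.61), the eyg promoter (1.49) and the Cdc5 promoter (1.55). Of the 8, 3 ranked higher in replicate 1 and 5 in replicate 3. Both CrebA promoter summits were compared with the same replicate 3 peak, so that peak enters these counts for each of them.

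The strongest 3350 peaks of each library taken alone gave 8 summits at these genes, as the pool did, but not the same ones. Without replicate 3 the trh internal promoter was lost, trh had 1 summit (that of Cdc5) and 3 genes had a promoter summit. Without replicate 1 the Cdc5 summit was lost, trh had 1 summit (its own promoter) and sage gained 1, that of ATP6AP2. fkh had 2 summits in either case, its promoter in both, with a further one 5447 bp upstream in replicate 1 (rank 2345, rank 9942 in replicate 3) and one 14102 bp downstream of the nearest TSS in replicate 3 (rank 2609, rank 7121 in replicate 1). CrebA had 3 summits in replicate 1 and 2 in replicate 3, where its promoter pair is a single peak. The depth of the 2 libraries is unknown, and its part in these differences was not tested.

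At the limits of the rule, the weakest optimal peak of the list had a signal of 65.93 and the strongest excluded one 65.92. Of the summits at the 5 genes, the last inside was that of Cdc5 near trh (66.5) and the first outside that of ATP6AP2 near sage (64.2). Past the 10 kb limit, the nearest optimal summits lay 13444 bp from CrebA at dop, 15113 bp from eyg at CG33725, 15587 bp from sage at CG8420, 15677 bp from trh at Ptpmeg and 35858 bp from fkh at mIF2. Each of these was within 1000 bp of a TSS of the gene named.

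Of the 11 motifs searched, 7 had no exact match in any of the 8 windows. They were the forkhead site TGTTTAC (in 8.09% of optimal windows), the Trh and Tgo site TACGTG (4.27%), the CrebA core CCACGT (3.10%), the E-box CAGCTG (10.3%), the DRE TATCGATA (5.01%), the Zelda site CAGGTAG (0.896%) and the word CGATAG (12.6%), each with its share of optimal windows. No Pax site was searched. Both strands were searched, and motif 1 and the word ACACTG share letters at their ends, so the match of ACACTG beside Cdc5 overlaps its motif 1. No match says only that these letters are not in these windows.

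The genes with the most similar pattern had the same number of optimal summits near a TSS, elsewhere in the body and in the flanks, and then the nearest strongest signal in the pooled list of the 2 libraries. For fkh, 844 other genes had the same counts, and the nearest were CG30411 and bchs (strongest signal 157 and 158). For CrebA only 9 genes did, the nearest being Bicra and CG10543 (117 and 119, against 99.4). For eyg and trh, which share their counts, 784 genes did. The nearest were CG11456 and CG13255 (both 98.0) for eyg and GlcAT-S and Trx2 (both 78.1) for trh. The unrounded signals are also equal within each pair, so the genes of a pair may be counted on a single peak. sage shares a count of 0 with 6057 genes.

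The other listed regulators of the salivary gland had no optimal promoter peak. An optimal summit in the gene or within 10 kb was present at 5 of 10 (50%, background 56.6%). Of these 10 genes (Scr, exd, hth, tsh, Abd-B, sens, hkb, toe, rib and tgo), 0 had an optimal summit within 1000 bp of a TSS, beside 20.4% of all protein-coding genes. A relaxed summit, optimal or not, lay there at 62.4% of all genes and at 8 of the 10 (80%), where none was optimal. The strongest of these was at tgo, which encodes the partner of Trh (signal 41.4, rank 6871). Scr, the Hox gene of the segment that forms the gland, stood at a signal of 23.5 (rank 16171). No relaxed summit lay within 1000 bp of a TSS of toe, the close paralog of eyg, or of sens, which encodes a zinc finger protein.

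Of 10 genes of salivary gland products and form, 5 had a promoter peak, that is an optimal summit within 1000 bp of a TSS (50%, background 20.4%). These were Btk, a tyrosine kinase gene (signal 251, rank 246), ps, a splicing regulator gene (178, rank 522), klar, whose product acts in vesicle transport (144, rank 844), crb, the apical polarity gene (139, rank 912), and pip, a sulfotransferase gene (105, rank 1519). The prolyl hydroxylase genes PH4alphaSG1 and PH4alphaSG2, named for the salivary gland, had no optimal one. The klar peak also lay within 1000 bp of the TSS of BORCS6. The named peaks of ps and crb had their summits 699 and 987 bp from a TSS of the gene. The background covers genes of all lengths.

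Genes of the secretory pathway, the class that CrebA is known to raise, had promoter peaks at 15 of 34 (44.1%, background 20.4%). The strongest 6 were TRAM (signal 307, rank 152), alphaCOP (269, rank 209), deltaCOP (237, rank 274), Srp14 (169, rank 592), Sec61alpha (167, rank 609) and epsilonCOP (147, rank 817). They encode parts of the translocation channel, of the signal recognition particle and of the COPI coat. At 12 of the 15, the strongest promoter peak also lay within 1000 bp of the TSS of another gene, so it cannot be assigned to the secretory gene by position. How often this holds over all genes with a promoter peak is not given here, so it is not read as particular to this pathway. A relaxed summit was present at 31 of the 34 (91.2%, background 62.4%).

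Counts at tracheal genes were near the background of 20.4%. Of 14 other tracheal regulators, 2 had a promoter peak (14.3%), namely aop, which encodes an ETS repressor (signal 112, rank 1350), and dysf, a bHLH-PAS gene of fusion cells (87.7, rank 2081). Of 18 genes of tracheal signalling and tube form, 3 had one (16.7%): crb, pyd, which encodes a junction protein (116, rank 1239), and put, a receptor gene of the Dpp pathway (71.5, rank 2939). At put the peak was shared with His4r.

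**Figure D4:**
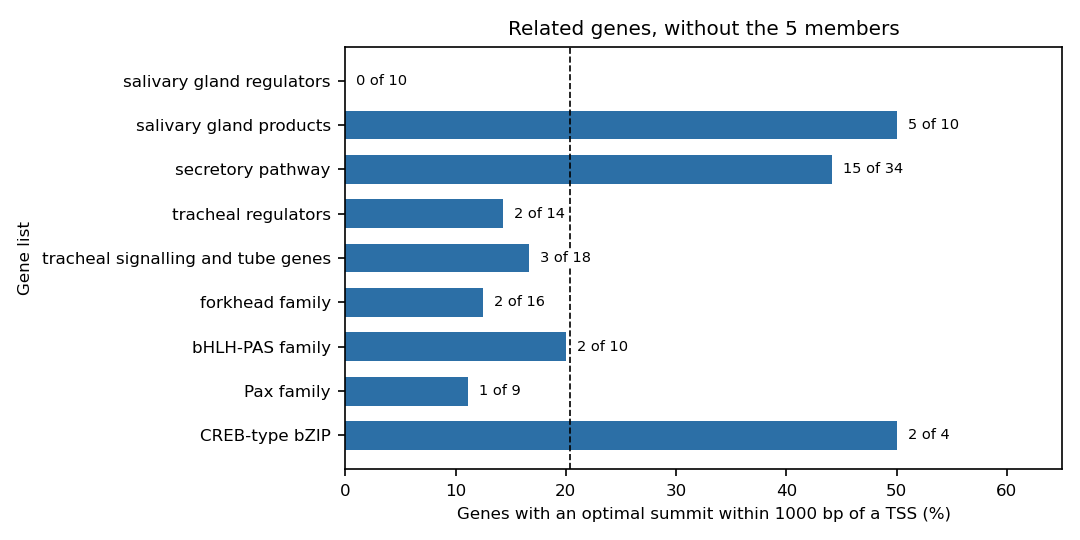
Share of genes (%) with an optimal summit within 1000 bp of a TSS in 9 lists of related genes, without the 5 members; the count stands beside each bar. The dashed line is the share of all protein-coding genes (20.4%). Salivary gland regulators stand at 0 of 10, and the secretory pathway at 15 of 34.

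The protein families of fkh, eyg, trh and CrebA were also counted, beside the background of 20.4%. Of 16 other forkhead genes, 2 had one (12.5%): CHES-1-like, with 3 summits near its TSSs and 10 in the gene and flanks (strongest near a TSS 242, rank 259), and FoxK (90.1, rank 1976). Of 9 other Pax genes, only Poxm did (11.1%, signal 75.0, rank 2696). Of 10 other bHLH-PAS genes, gce (171, rank 566) and dysf did (20%). The gce peak also lay within 1000 bp of the TSS of asRNA:CR44429. Of 4 other CREB-type bZIP genes, Xbp1, which acts in the unfolded protein response (137, rank 937), and CrebB (90.2, rank 1969) did (50%). These families are small, and the counts are given as a description.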

How the data were processed

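Peak lists on dm6 from 2 ChIP-seq libraries of 1 group were used, with groups and replicate numbers from the labels. Per the notes deposited beside the files, the authors made a relaxed list for each replicate and for the pooled replicates, and kept the optimal set from these by the irreproducible discovery rate method. Aligner, peak caller and threshold: not given in the sources used here. Signal in the deposited lists is the authors' own, used only to rank peaks within a list. The deposited −log10 q-value is 3.95 for every optimal peak and ranks none of them. No read counts are in these lists, so depth is unknown and no interval was computed.

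Summits are column 2 plus column 10, written 1-based, and genes and TSSs those of Ensembl release 115 without transposable elements. Python 3.11.15, NumPy 2.4.6, pandas 2.3.3 and matplotlib 3.10.9 were used. Replicate values are those of the overlapping peak with the nearest summit. Gene lists, motifs and members were chosen with earlier results of these data known. Of the list symbols, Btk29A and fd64A were updated through RefSeq synonyms to Btk and FoxL1, and Sec62 was not matched. Named list genes are those with an optimal promoter summit, at most the 6 strongest of a list; tgo, Scr, toe, sens, PH4alphaSG1 and PH4alphaSG2 were named after their values were seen. The counting was tested on simulated data. The lists on dm3 were not used. No test was made, since there is 1 group. The labels call the libraries biological replicates and do not say how the embryo collections differed.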

Additional observations from a re-analysis of the deposited data

How the results depend on the processing

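Of the 21 alternative values computed for the counts over all 5 genes, 17 were within 1.5 times the reported count. With the stronger 50% of the optimal peaks, 2 genes (fkh and CrebA) had a promoter summit, 2 had a summit in the gene or within 10 kb, and 2 summits were left in all. With flanks of 20 kb there were 13 summits. The genes with a promoter summit numbered 3 to 4 with a single replicate, those with a summit in the gene or within 10 kb 4 to 5, and the summits 8 with either replicate. With TSS distances of 500 and 2000 bp, and with canonical transcripts only, 4 genes had a promoter summit. With summits of both replicates required within 100 bp, 6 of the 8 optimal summits were matched, and with a reciprocal overlap of 50% all 8 were. For single genes, 12 of 30 alternative counts moved by more than 1.5 times, each from a main count of 3 or fewer. No paired analysis was possible because the samples form 1 group. Depth is unknown, so a weak or missing peak, such as that at the sage promoter, may lie under what these libraries can show.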
